A study of Mus musculus with 6 samples.

Results

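The 50 genes described here drive and restrain cell division, and all 50 were found by symbol among the 23412 genes of the deposited expression table. They were grouped by role into 19 genes of S phase, when DNA is copied, 21 genes of mitosis and 10 genes of G1 control, the cyclin D and inhibitor genes that act before DNA is copied. RNA came from the ventral dermis of 3 mutant and 3 control mice, taken at 3 weeks of age after the epidermis was loosened with trypsin and removed. The mutants carried HoxB6CreERT/+, R26-YFP/+ and CatnbΔex3/+, so that a tamoxifen-activated Cre made under Hoxb6 control in part of the dermal fibroblasts removed exon 3 of the beta-catenin gene and left a stabilised protein. The controls were littermates with HoxB6CreERT/+ and R26-YFP/+ only. Both groups had a mixed CD1 and C57BL/6 background, and both received tamoxifen through the mother on embryonic day 16.5. The comparison asks how RNA levels differ when some dermal fibroblasts hold stabilised beta-catenin from before birth.

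Cells commit to division when D-type cyclins with the kinases Cdk4 and Cdk6 inactivate the retinoblastoma protein and free E2F transcription factors. E2F factors then switch on the genes for DNA replication, and a later wave of mitotic genes follows under B-Myb, FoxM1 and the MuvB proteins. Inhibitors of the INK4 and CIP/KIP families hold the kinases in check. In skin the matrix of the growing hair follicle is the best known site of rapid division, while most dermal fibroblasts of a weaned mouse rarely divide, and Ccnd1 is a textbook target of beta-catenin signalling.

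The promoters of the members held different motifs by role. RefSeq promoter windows (build GRCm38.p6, from 250 bases before to 50 after a start) were matched for 39 of the 50 members, in 44 windows. No window was matched for Gins1, Mcm4, Ccne2, Ccna2, Foxm1, Gins2, Tpx2, Ccnd1, Ccnd2, Kif20a and Aurkb. Both strands were searched for TTTGAA, the cell cycle genes homology region bound by MuvB complexes, for CCAAT, the box bound by NF-Y, and for the E2F forms TTTCCCGC, TTTCGCGC, TTTGCCGC and TTTGGCGC. TTTGAA was in 12 of 16 mitosis windows (75.0%), in 2 of 16 S phase windows (12.5%) and in 1 of 12 G1 control windows (8.33%), against 17.9% of all 32851 windows. An E2F form was in 1 of 16 mitosis windows (6.25%), 7 of 16 S phase windows (43.75%) and 1 of 12 G1 control windows (8.33%), against 2.26% of all windows. CCAAT was in 14 mitosis windows (87.5%), 11 S phase windows (68.75%) and 4 G1 control windows (33.3%), against 37.4% of all. In the member windows, 1 match to one of these motifs overlapped a match to another. These shares are descriptions with no test, and a match shows no binding.

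The 5 stretches printed here are the 150 bases just before the start of 4 mitosis genes and 1 S phase gene, chosen because they show the 2 kinds of promoter side by side. Capitals mark every match to a motif on either strand. Starts are those of RefSeq and can differ from the GENCODE gene bounds given further on. In Ube2c, Cdc20 and Cdk1 the printed bases reach into those bounds.
Top2a, chr11:99024190-99024339, minus strand: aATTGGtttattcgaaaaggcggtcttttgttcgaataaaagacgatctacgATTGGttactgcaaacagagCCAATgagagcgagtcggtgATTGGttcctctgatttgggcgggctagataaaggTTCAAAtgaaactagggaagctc
Ube2c, chr2:164769779-164769928, plus strand: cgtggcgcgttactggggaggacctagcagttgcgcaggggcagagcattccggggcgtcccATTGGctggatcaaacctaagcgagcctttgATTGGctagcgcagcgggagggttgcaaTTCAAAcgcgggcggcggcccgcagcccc
Cdc20, chr4:118437344-118437493, minus strand: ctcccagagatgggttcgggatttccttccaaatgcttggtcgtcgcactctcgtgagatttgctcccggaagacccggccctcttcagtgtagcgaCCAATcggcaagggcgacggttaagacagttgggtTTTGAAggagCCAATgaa
Cdk1, chr10:69352913-69353062, minus strand: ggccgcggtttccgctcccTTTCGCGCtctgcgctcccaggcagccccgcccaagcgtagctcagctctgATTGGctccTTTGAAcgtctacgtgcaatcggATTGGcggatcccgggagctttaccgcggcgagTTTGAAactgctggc
Mcm6, chr1:128359706-128359855, minus strand: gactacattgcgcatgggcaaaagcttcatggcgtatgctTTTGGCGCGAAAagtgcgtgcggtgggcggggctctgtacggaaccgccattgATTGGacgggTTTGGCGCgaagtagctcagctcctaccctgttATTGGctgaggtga
Top2a, Ube2c and Cdc20 each held TTTGAA close to the start, at 23, 29 and 18 bases before it, next to CCAAT boxes. Cdk1 held TTTGAA at 71 and 15 bases before the start and also an E2F form at 131 bases. Mcm6 held E2F forms at 110, 106 and 47 bases before the start, of which the first pair overlap on opposite strands, and no TTTGAA.

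The libraries held 11839144 to 13478910 gene reads in mutants and 7799565 to 9675359 in controls, as recovered from the steps of the deposited values. The deposited unit, FPKM, is a fragment count scaled to gene length and library depth. Control 2 had the lowest and mutant 1 the highest level over all genes: factors that follow the middle gene of each library were 1.18, 0.924 and 1.04 in mutants 1 to 3 and 1.01, 0.880 and 0.988 in controls 1 to 3. Y-linked genes were expressed in the 3 mutants and in control 3, so the sexes were not balanced. With library sex as a covariate, a difference therefore rests on the mutants against control 3 alone, the only control with Y-linked RNA. Xist, which silences one X chromosome in females, was at 0.0827, 6.47 and 0.184 FPKM in mutants 1 to 3 and at 55.5, 66.2 and 0.172 FPKM in controls 1 to 3, so mutant 2 held both Y-linked RNA and some Xist. Ctnnb1 itself was at 193, 136 and 168 FPKM in mutants 1 to 3 and at 201, 163 and 183 FPKM in controls 1 to 3, and a value for the whole gene cannot show the loss of a single exon. Markers of dermal fibroblasts were abundant, with sums over 8 genes of 9502 to 13696 FPKM in mutants and 2718 to 10484 FPKM in controls. The dissected dermis also held 19 hair follicle genes, of matrix, shaft and inner root sheath, at sums of 3489 to 7659 FPKM in mutants and 6434 to 7855 FPKM in controls. It held 7 basal keratinocyte genes at 679 to 839 FPKM in mutants and 555 to 732 FPKM in controls. In such bulk samples fewer cells of a type and less RNA per cell cannot be told apart.

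Cdk4, Pcna, Top2a, Mki67 and Ccnd2 were the highest 5 of the members in 6 of 6 libraries. Together the 50 members took 0.395%, 0.405% and 0.421% of gene reads in mutants 1 to 3 and 0.473%, 0.421% and 0.394% in controls 1 to 3, so the groups overlapped. Gene reads include the ribosomal RNA gene Rn45s. It took 1.96%, 8.10% and 2.65% of them in mutants 1 to 3 and 5.28%, 3.03% and 3.71% in controls 1 to 3. Only Cdkn2a averaged below 1 FPKM, the minimum for testing, which left 49 members.

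**Figure D1:**
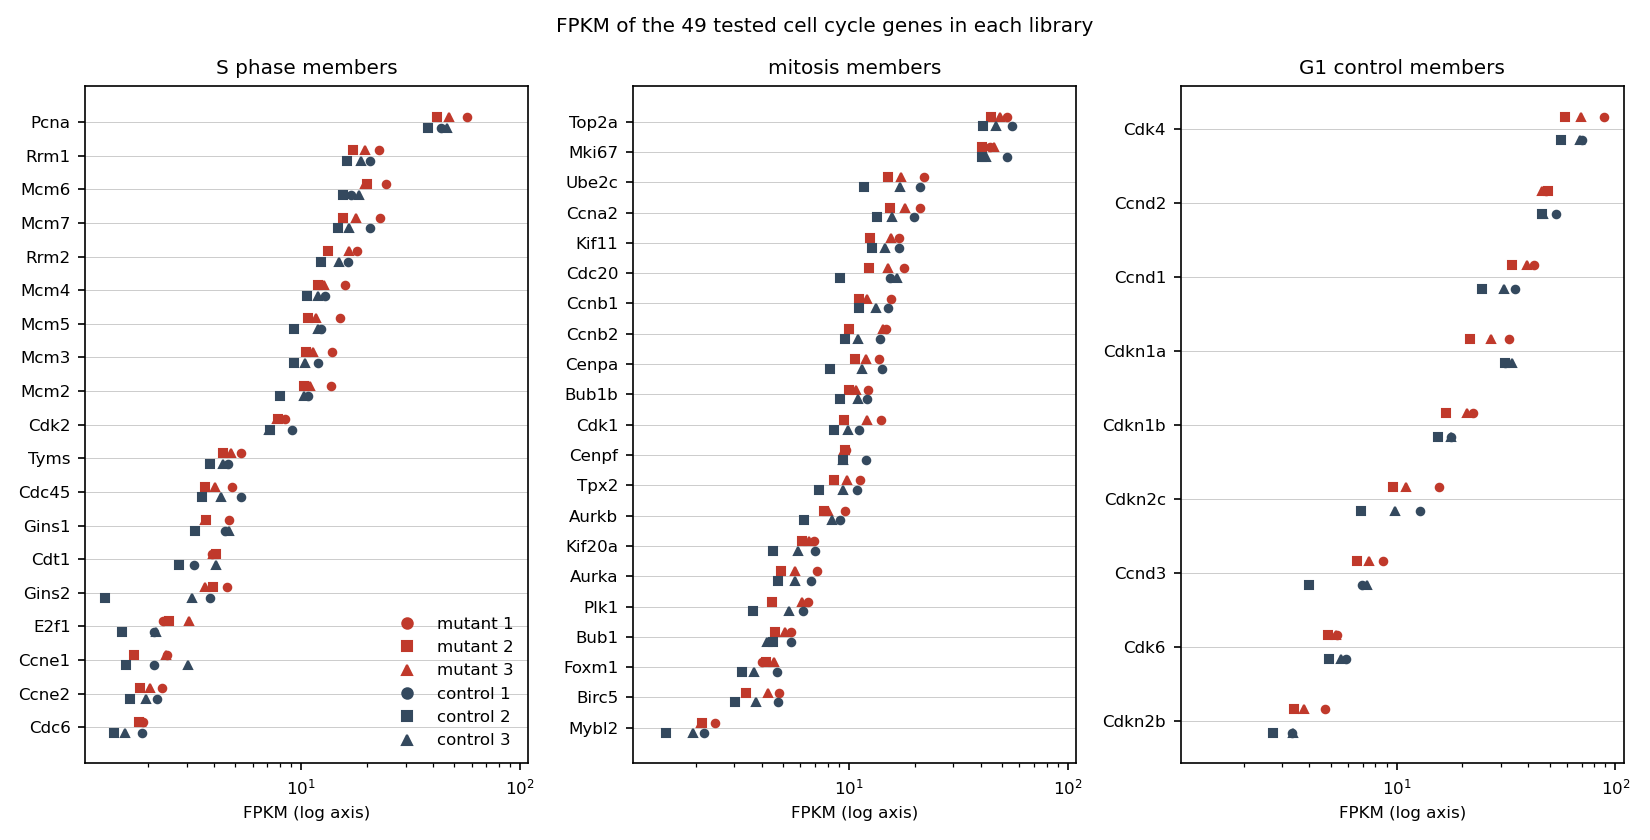
FPKM (log axis) of the 49 tested members in each library, mutants in red above controls in dark blue, with a marker shape per replicate number and one panel per role. Control 2 (dark square) is the lowest library for 44 of the 49 genes and mutant 1 (red circle) the highest for 33.

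None of the 49 tested members passed the test between activated beta-catenin and control dermis, which does not show that their levels were equal. Of the 49, 0 were called higher and 0 lower at an adjusted p under 0.05 (limma with Benjamini-Hochberg adjustment over 12560 genes), where 0.143% of all tested genes were called higher and 0% lower. The lowest adjusted p of a member was 0.458, for E2f1. Without adjustment, 0 members passed a p under 0.05 in either direction, against 10.5% of all tested genes higher and 0.748% lower. Limma-voom on the recovered reads also called 0 members, where it called 1.44% of all tested genes higher and 0.0318% lower. Without adjustment 0 members passed higher and 1 lower in voom, against 9.17% and 7.08% of all tested genes. The 49 log2 differences, mutant minus control on the log2(FPKM + 1) scale, ran from -0.26 for Cdkn1a to 0.49 for Gins2. In 40 they were above 0, but so were 71.3% of all tested genes, and the median over the members was 0.13 against 0.09 over all tested genes. When each library was divided by its factor (median-of-ratios scaling), 28 were above 0 and 21 below. The data leave room for modest differences: the 95% intervals had a median half-width of 0.36, and 48 of the 49 lay within 1 log2 unit on either side of 0. In 3 members, Mcm6, E2f1 and Cdkn2b, every mutant lay above every control, and in 0 below, against 13% and 2.65% of all tested genes.

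**Figure D2:**
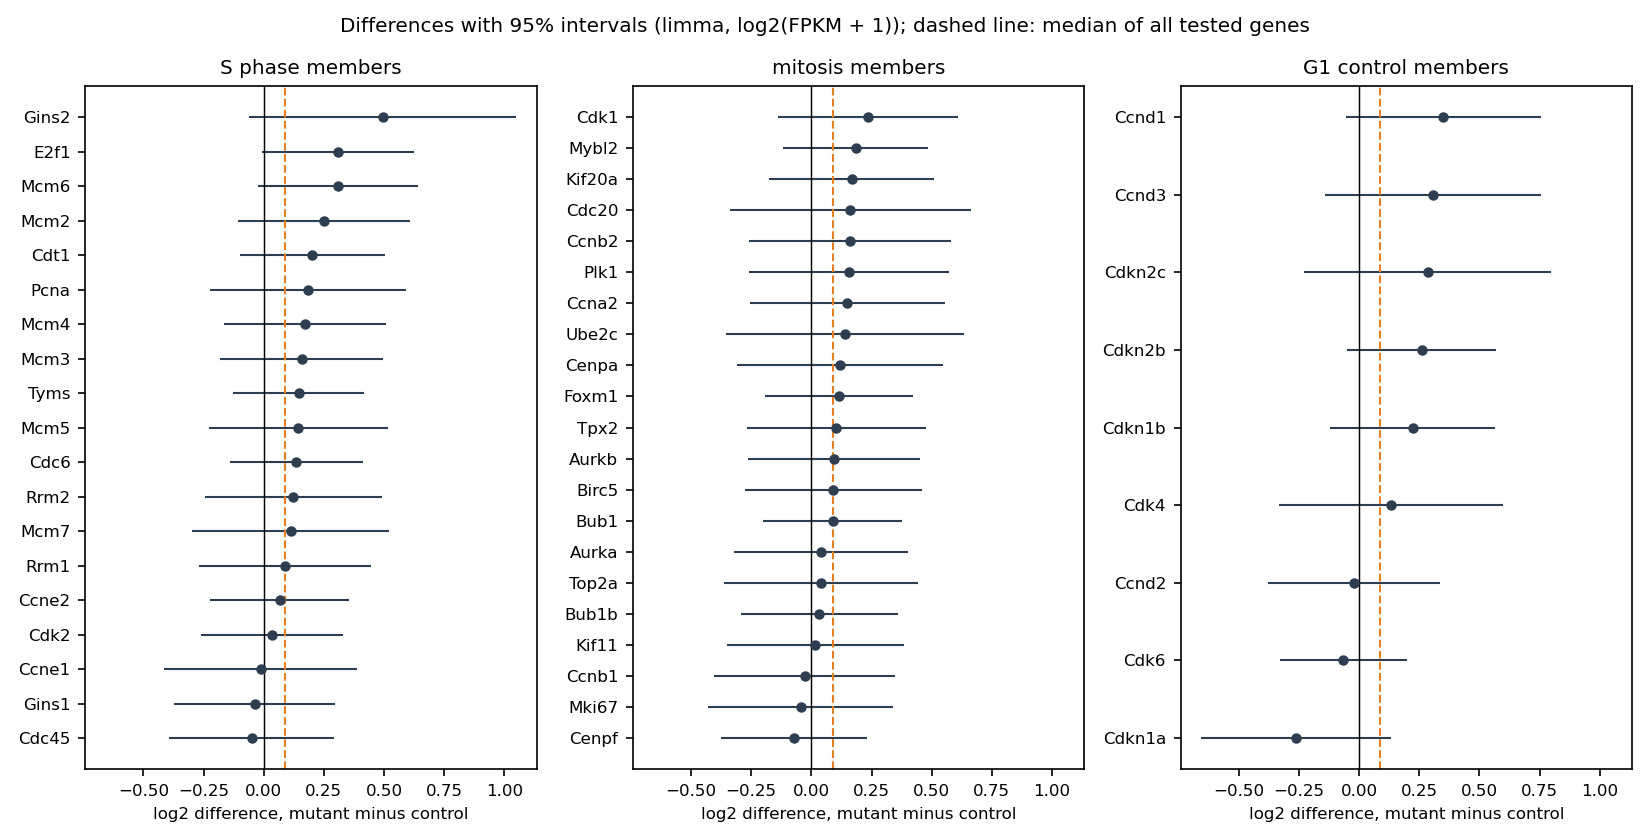
Log2 difference (mutant minus control, log2(FPKM + 1)) of each tested member with its 95% interval from limma, by role. The solid line is 0 and the dashed line the median of all tested genes, 0.09, and the interval of every member includes 0.

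Mutant 1 stood high and control 2 low for the members and for all genes, while control 1 stood higher for the members than for all genes. Control 2 was the lowest library for 44 of 49 members and mutant 1 the highest for 33. Relative to the mean of the 6 libraries the members' median deviation in log2 was 0.23, -0.11 and 0.048 in mutants 1 to 3 and 0.13, -0.26 and -0.034 in controls 1 to 3. Over all tested genes it was 0.21, -0.11 and 0.053 in mutants 1 to 3 and 0.022, -0.16 and -0.0023 in controls 1 to 3. Median-of-ratios scaling moved the median difference of all tested genes to -0.012, and quantile normalization and voom gave -0.029 and -0.040. After median-of-ratios scaling control 2 was still lowest for 27 members, and control 1, not mutant 1, was highest for the largest number, 25. Of the members, 0 were then called, where 0.199% of all tested genes were called higher and 0% lower. Groups did not overlap in 4 members upward and 2 downward, against 11.9% and 11.7% of all tested genes, and 1 member passed an unadjusted p under 0.05 in each direction, against 10.1% and 6.49%.

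**Figure D3:**
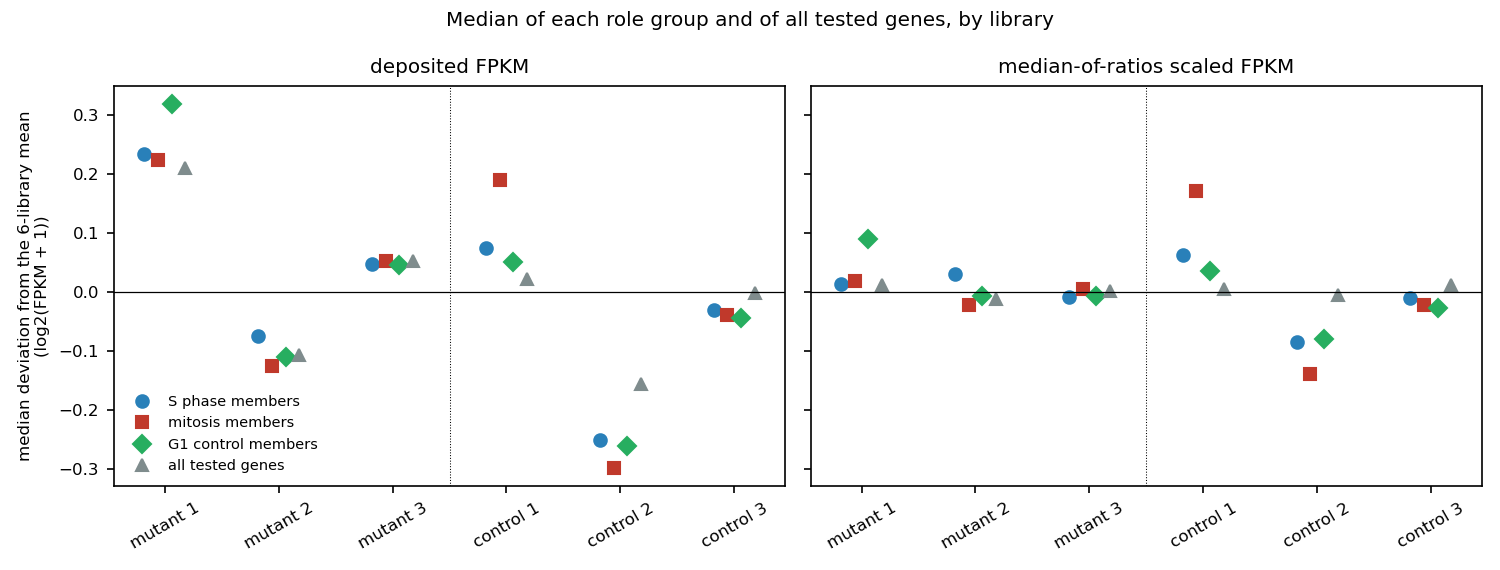
Median deviation of each role group and of all tested genes from the mean of the 6 libraries (log2(FPKM + 1)), for deposited values on the left and median-of-ratios scaled values on the right, mutants left of the dotted line. In the deposited values mutant 1 is high and control 2 low in the role groups and in all genes, the mitosis members are at 0.19 in control 1 where all genes are at 0.022, and after scaling the mitosis members stand at 0.17 in control 1 and -0.14 in control 2.

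Among the S phase genes, 0 of 19 were called, where 0.143% of all tested genes were called higher and 0% lower. The S phase median log2 difference was 0.14, or 0.056 above that of all tested genes. In 14 of the 19 the difference was above the median of all genes and in 5 below. E2f1, which encodes an activating E2F factor (chromosome 2, 154559407 to 154569892, GRCm38), was at 2.35, 2.49 and 3.06 FPKM in mutants 1 to 3 and at 2.13, 1.51 and 2.18 FPKM in controls 1 to 3. Every mutant lay above every control, on 59 to 160 reads a library. The log2 difference was 0.31 (95% interval -0.0073 to 0.63, adjusted p = 0.458), or 0.20 without control 2. With library sex as a covariate, so against control 3 alone, it was 0.19. After scaling mutant 1, at 1.99 FPKM, lay below controls 1 and 3, at 2.10 and 2.20 FPKM.

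The helicase that opens DNA for replication is built from the 6 Mcm proteins with Cdc45 and the GINS complex. None of its genes listed here was called. Mcm6 (chromosome 1, 128331590 to 128359664) was at 24.3, 19.9 and 19.6 FPKM in mutants 1 to 3 and at 16.9, 15.6 and 18.4 FPKM in controls 1 to 3. The groups did not overlap as deposited or after scaling, where mutant 3 at 18.8 FPKM lay just above control 3 at 18.6 FPKM. Of all tested genes, 13% stood apart upward as deposited and 11.9% after scaling. The Mcm6 difference was 0.31 in log2 (95% interval -0.026 to 0.64, adjusted p = 0.491), or 0.19 with library sex as a covariate. Mcm2 (chromosome 6, 88883474 to 88898780) was at 13.7, 10.4 and 10.9 FPKM in mutants and 10.8, 7.97 and 10.3 FPKM in controls, where mutant 2 lay below control 1 (log2 difference 0.25, adjusted p = 0.649). The other Mcm genes, Mcm3, Mcm4, Mcm5 and Mcm7, had log2 differences from 0.11 to 0.17.

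Gins2, a GINS subunit gene (chromosome 8, 120578633 to 120589304), had the highest difference of the members. It was at 4.58, 3.97 and 3.62 FPKM in mutants 1 to 3 and at 3.85, 1.28 and 3.16 FPKM in controls 1 to 3. Control 2 alone stood low, on 21 reads, and control 1 lay above mutant 3. The log2 difference was 0.49 (95% interval -0.060 to 1.05, adjusted p = 0.512) and 0.17 without control 2. Gins1, of the same complex, and Cdc45 had differences of -0.037 and -0.051. Exons of Gins2 overlap Gse1 on the other strand, which was at 5.87 to 6.49 FPKM in mutants and 6.27 to 7.51 FPKM in controls. The part of Gse1 in the Gins2 value was not tested.

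Cdt1, which loads the helicase at origins (chromosome 8, 122568015 to 122573554), was at 3.89, 4.08 and 3.95 FPKM in mutants and 3.24, 2.76 and 4.06 FPKM in controls. Control 3 lay above mutants 1 and 3, and the log2 difference was 0.20 (adjusted p = 0.666). Its partner Cdc6 had a difference of 0.14. Pcna, the sliding clamp of DNA polymerases (chromosome 2, 132249162 to 132253314), was the most abundant S phase member, at 57.1, 41.5 and 47.5 FPKM in mutants and 43.4, 37.9 and 46.5 FPKM in controls. Its groups overlapped (log2 difference 0.18, adjusted p = 0.804).

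Rrm1, the large subunit of the ribonucleotide reductase that makes DNA building blocks (chromosome 7, 102441695 to 102469771), was at 22.7, 17.3 and 19.6 FPKM in mutants and 20.6, 16.2 and 18.8 FPKM in controls. Its small subunit gene Rrm2 and the thymidylate synthase gene Tyms had differences of 0.12 and 0.14, close to the 0.090 of Rrm1. Ccne1 and Ccne2, the E cyclins, and their kinase gene Cdk2 had differences of -0.013, 0.067 and 0.035. The exons of Cdk2 overlap those of the pigment gene Pmel on the other strand, and Pmel was at 5.96 to 10.9 FPKM in mutants and 7.07 to 9.93 FPKM in controls. The libraries were stranded, but how strand was used in counting is not given, and the part of Pmel in the Cdk2 value was not tested.

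Among the 21 mitosis genes 0 were called and none had groups that did not overlap, as deposited or after scaling. Of all tested genes, 0.143% were called higher as deposited and 0.199% after scaling, and 0% lower in both. Their groups did not overlap in 13% upward and 2.65% downward as deposited, and in 11.9% and 11.7% after scaling. In 14 of the 21 mitosis genes the difference was above the median of all genes and in 7 below. The median log2 difference of the mitosis genes was 0.10, or 0.016 above that of all tested genes, and it was -0.0048 after median-of-ratios scaling. Without control 2 it was -0.052, against 0.031 for all tested genes. Mki67, the source of the Ki-67 proliferation antigen (chromosome 7, 135689784 to 135716361), was at 44.3, 40.6 and 45.9 FPKM in mutants 1 to 3 and at 52.9, 40.4 and 42.5 FPKM in controls 1 to 3. Control 1 was the highest library and control 2 the lowest, so the mutants lay between controls, and the difference was -0.045 in log2 (95% interval -0.43 to 0.34, adjusted p = 0.966) on 6397 to 9842 reads. Top2a, the topoisomerase that untangles sister chromatids (chromosome 11, 98992943 to 99024189), was at 52.96, 44.4 and 49.2 FPKM in mutants and 55.6, 41.0 and 46.8 FPKM in controls. Its difference was 0.038 (95% interval -0.36 to 0.44, adjusted p = 0.971).

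Cdk1, the kinase that starts mitosis (chromosome 10, 69335146 to 69352938), had the highest difference of this group. It was at 14.1, 9.48 and 12.1 FPKM in mutants and 11.1, 8.58 and 9.90 FPKM in controls, with mutant 2 below controls 1 and 3 (log2 difference 0.23, 95% interval -0.14 to 0.61, adjusted p = 0.694). Ccnb2, a B-type cyclin partner of Cdk1 (chromosome 9, 70407692 to 70421547), was at 14.8, 9.97 and 14.3 FPKM in mutants and 13.9, 9.57 and 11.03 FPKM in controls. Ccna2 and Ccnb1, the other mitotic cyclins listed, had differences of 0.15 and -0.028. Ccna2 was above Ccnb1 in 6 of 6 libraries, by FPKM. The ratio of Ccnb1 to Ccna2 was 0.737, 0.719 and 0.666 in mutants 1 to 3 and 0.757, 0.825 and 0.839 in controls 1 to 3, so it was lower in every mutant, a pair looked at after the values were seen and not tested.

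Regulators of the mitotic programme were also uncalled. Mybl2, which encodes B-Myb (chromosome 2, 163054687 to 163084688), was at 2.46, 2.13 and 2.12 FPKM in mutants and 2.17, 1.46 and 1.93 FPKM in controls (log2 difference 0.19, adjusted p = 0.709), with control 1 above mutants 2 and 3. Foxm1 had a difference of 0.12. Plk1, a kinase of spindle assembly and cytokinesis (chromosome 7, 122159439 to 122169873), was at 6.49, 4.47 and 6.08 FPKM in mutants and 6.16, 3.63 and 5.31 FPKM in controls. Kif20a, a motor of cytokinesis (chromosome 18, 34624613 to 34633277), was at 6.94, 6.09 and 6.57 FPKM in mutants and 7.01, 4.49 and 5.84 FPKM in controls. In both genes control 2 was lowest, the groups overlapped, and the differences were 0.16 and 0.17.

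Cdc20 and Ube2c serve the anaphase-promoting complex, which ends mitosis by destroying cyclins. Cdc20 (chromosome 4, 118432901 to 118437352) was at 17.9, 12.4 and 15.1 FPKM in mutants and 15.3, 9.12 and 16.5 FPKM in controls (log2 difference 0.16, adjusted p = 0.877). Ube2c (chromosome 2, 164769898 to 164778822) was at 22.1, 15.0 and 17.3 FPKM in mutants and 21.1, 11.7 and 17.1 FPKM in controls (log2 difference 0.14, adjusted p = 0.896). Exons of Ube2c overlap the muscle gene Tnnc2 on the other strand, which was at 191, 115 and 84.3 FPKM in mutants and 142, 51.0 and 172 FPKM in controls, with control 2 lowest in both genes, and its part in the Ube2c value was not tested. The remaining mitosis members, the spindle genes Aurka, Kif11 and Tpx2, the chromosome passenger genes Aurkb and Birc5, the checkpoint genes Bub1 and Bub1b and the centromere genes Cenpa and Cenpf, had differences from -0.074 for Cenpf to 0.12 for Cenpa.

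Set against each other, S phase and mitosis genes gave a difference that depended on controls 1 and 2. The mitosis median minus the S phase median was -0.040 between groups. Without control 2 it was -0.13, and without control 1 it was 0.017. By library it was -0.012, -0.052 and 0.0042 in mutants 1 to 3. In controls 1 to 3 it was 0.12, -0.047 and -0.0075, so control 1 stood apart. The largest SD among libraries of a group was 0.085, a spread of single libraries and no test of the difference between groups. The summed FPKM of mitosis genes over that of S phase genes, a ratio free of any offset of a library, was 1.28, 1.32 and 1.39 in mutants and 1.55, 1.38 and 1.36 in controls. Mutants 1 and 2 were lowest and control 1 highest, and the groups overlapped. The ratio of Mki67 to Pcna was 0.776, 0.978 and 0.967 in mutants and 1.22, 1.07 and 0.914 in controls, again with control 1 highest and the groups overlapping.

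G1 control genes did not move as a block. In 6 of the 9 tested the difference was above the median of all genes and in 3 below, beside 14 above and 7 below among the mitosis genes. The G1 control median was 0.22 with 0 called, where 0.143% of all tested genes were called higher and 0% lower. The G1 control median was 0.10 without mutant 1, 0.073 without control 2 and -0.061 without both, where all tested genes were at 0.011, 0.031 and -0.042. With library sex as a covariate, so against control 3 alone, it was 0.048, where all tested genes were at 0.046. Among the D cyclins Ccnd2 was above Ccnd1 and Ccnd1 above Ccnd3 in 6 of 6 libraries, by FPKM. Ccnd1 (chromosome 7, 144929931 to 144939925) was at 42.5, 33.7 and 39.3 FPKM in mutants 1 to 3 and at 34.8, 24.7 and 31.1 FPKM in controls 1 to 3. Mutant 2 lay below control 1 as deposited (log2 difference 0.35, 95% interval -0.056 to 0.75, adjusted p = 0.531), and the difference was 0.22 without control 2. After median-of-ratios scaling the mutants stood at 36.1, 36.5 and 37.8 FPKM and the controls at 34.3, 28.0 and 31.5 FPKM, every mutant above every control, with a difference of 0.23 (95% interval 0.014 to 0.45, adjusted p = 0.282).

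Ccnd2 (chromosome 6, 127125162 to 127152193) was at 48.0, 49.1 and 46.3 FPKM in mutants and 53.3, 46.1 and 46.6 FPKM in controls, with overlapping groups (log2 difference -0.022, 95% interval -0.38 to 0.34). The ratio of Ccnd1 to Ccnd2 was 0.885, 0.686 and 0.849 in mutants and 0.653, 0.535 and 0.667 in controls, higher in every mutant, though mutant 2 exceeded control 3 by little. Ccnd3 (chromosome 17, 47505051 to 47599691) was at 8.70, 6.61 and 7.49 FPKM in mutants and 6.97, 3.99 and 7.31 FPKM in controls, with control 2 alone low (log2 difference 0.31, adjusted p = 0.659). The Ccnd3 difference was 0.073 without control 2, and 0.042 with library sex as a covariate, so against control 3 alone. Cdk4 (chromosome 10, 127063534 to 127067920), the kinase of the D cyclins, was at 88.2, 58.8 and 69.8 FPKM in mutants and 70.2, 56.6 and 68.9 FPKM in controls (log2 difference 0.13, adjusted p = 0.895). Its relative Cdk6 was far lower, with Cdk4 at 12.1 to 16.5 times its FPKM in mutants and 11.5 to 12.4 times in controls. Exons of Cdk4 overlap Tspan31 on the other strand, which was at 20.8 to 30.5 FPKM in mutants and 18.8 to 22.7 FPKM in controls. The part of Tspan31 in the Cdk4 value was not tested.

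Of the CDK inhibitors, Cdkn1a, which encodes p21 and is a classic p53 target (chromosome 17, 29090976 to 29100727), had the lowest difference of all members. It was at 32.5, 21.6 and 26.9 FPKM in mutants 1 to 3 and at 31.3, 31.4 and 33.6 FPKM in controls 1 to 3, so mutant 1 overlapped the controls (log2 difference -0.26, 95% interval -0.66 to 0.13, adjusted p = 0.674). After median-of-ratios scaling it was at 27.6, 23.4 and 25.8 FPKM in mutants and 30.9, 35.7 and 34.0 FPKM in controls, with every mutant below every control. The scaled difference was -0.38 (95% interval -0.60 to -0.16) and did not pass adjustment (adjusted p = 0.153). The deposited difference was -0.12 without mutant 2. Relative to the median of all genes it was -0.35 with all libraries, -0.37 after scaling, -0.36 after quantile normalization and -0.38 in voom. The ratio of Cdkn1a to Cdk4 was 0.368, 0.368 and 0.385 in mutants and 0.447, 0.555 and 0.488 in controls.

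Cdkn1b, which encodes p27 (chromosome 6, 134920401 to 134925513), was at 22.4, 16.9 and 20.9 FPKM in mutants and 17.7, 15.5 and 17.8 FPKM in controls, with mutant 2 below controls 1 and 3 (log2 difference 0.22, adjusted p = 0.686). After scaling it was at 19.0, 18.3 and 20.1 FPKM in mutants and 17.4, 17.6 and 18.0 FPKM in controls, and every mutant lay above every control. The ratio of Cdkn1a to Cdkn1b, 2 members of one inhibitor family, was 1.45, 1.28 and 1.28 in mutants and 1.77, 2.03 and 1.89 in controls. It was lower in every mutant. Such ratios were picked after the values were seen, and an exact permutation test of 3 against 3 libraries cannot go below p = 0.1, so none was tested.

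In the INK4 family, Cdkn2b, which encodes p15 (chromosome 4, 89306299 to 89311039), was at 4.73, 3.40 and 3.78 FPKM in mutants and 3.33, 2.72 and 3.36 FPKM in controls. Every mutant lay above every control as deposited and after scaling, though mutant 2 by only a small margin as deposited (log2 difference 0.26, 95% interval -0.051 to 0.57, adjusted p = 0.550). Cdkn2c, which encodes p18 (chromosome 4, 109660876 to 109667189), was at 15.6, 9.66 and 11.05 FPKM in mutants and 12.9, 6.90 and 9.80 FPKM in controls, with overlapping groups (log2 difference 0.28, adjusted p = 0.742). The Cdkn2c difference was 0.10 without mutant 1, 0.074 without control 2 and -0.11 without both. Cdkn2a, the gene of p16 and p19Arf (chromosome 4, 89274471 to 89294653), had 3, 1 and 3 reads in mutants and 1, 0 and 0 reads in controls, so its level was at the limit of detection in both groups and no fold is given. Of the inhibitors, Cdkn1a was highest, followed by Cdkn1b, Cdkn2c, Cdkn2b and Cdkn2a, in 6 of 6 libraries.

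**Figure D4:**
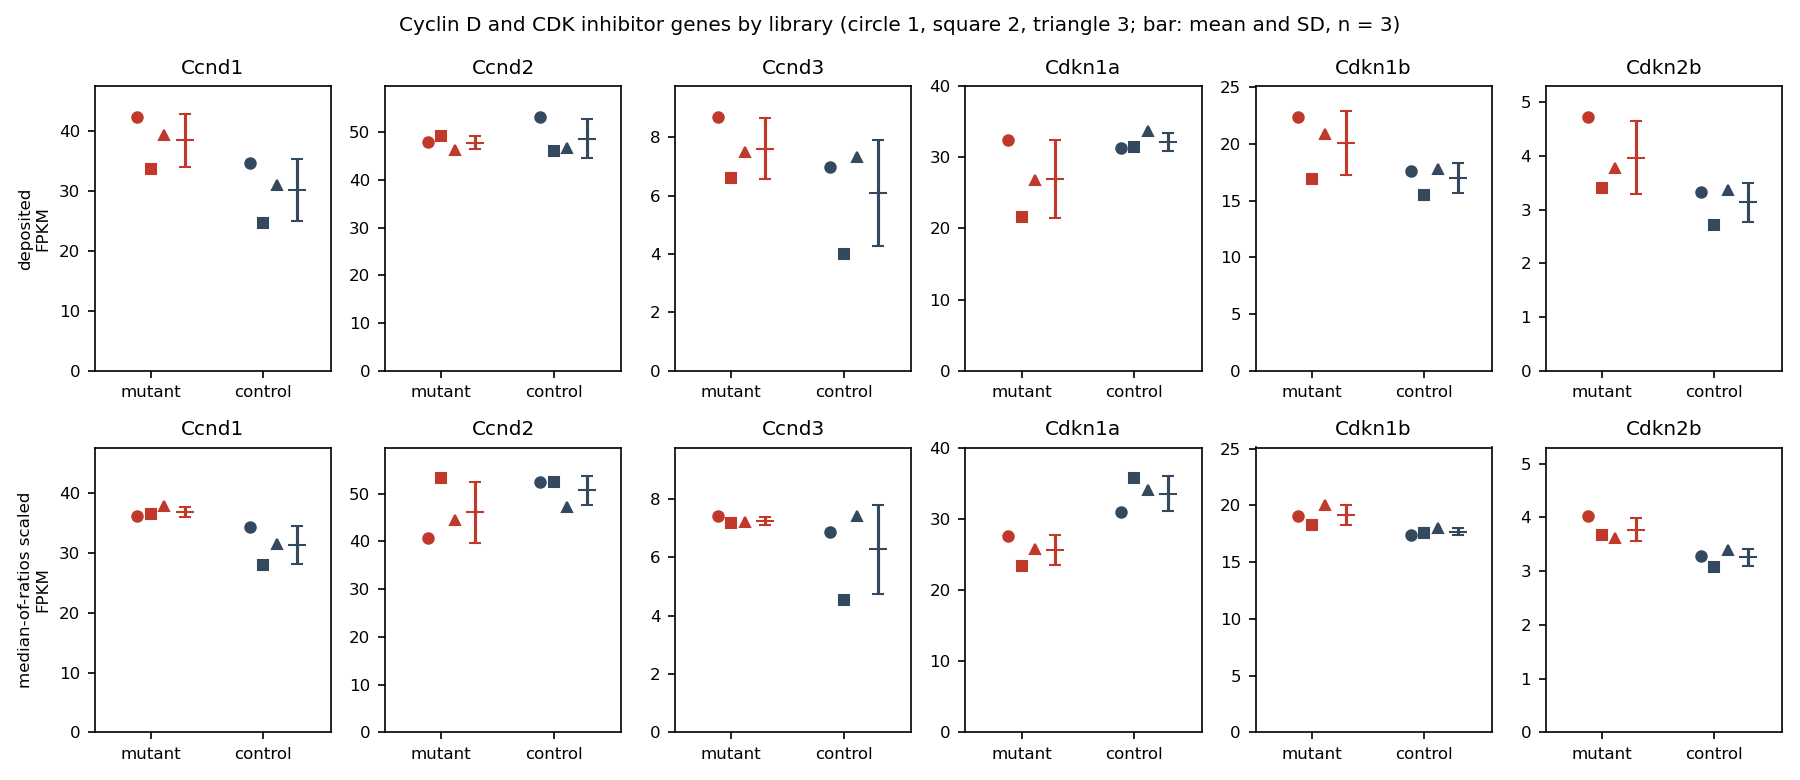
FPKM of 3 cyclin D and 3 CDK inhibitor genes in mutant (red, left) and control (dark blue, right) libraries, as deposited in the upper row and median-of-ratios scaled in the lower row, with points for libraries and bars for mean and SD (n = 3 each). After scaling, Cdkn1a is lower in every mutant (23.4 to 27.6 FPKM) than in any control (30.9 to 35.7 FPKM), and Ccnd1, Cdkn1b and Cdkn2b are higher in every mutant.

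Lists of further genes of the same machinery held no called gene either, where 0.143% of all tested genes were called higher and 0% lower. Of 50 other DNA replication genes, 0 were called higher and 0 lower, with a median log2 difference of 0.073. The most abundant were Dnmt1, which copies DNA methylation (17.9 ± 1.84 FPKM in mutants and 16.5 ± 2.04 FPKM in controls, mean ± SD, n = 3 each), its partner Uhrf1 (16.9 ± 1.84 FPKM in mutants and 16.1 ± 3.02 FPKM in controls) and Rpa1, which binds single-stranded DNA (16.04 ± 3.19 FPKM in mutants and 15.2 ± 1.55 FPKM in controls). Of 33 tested kinetochore and checkpoint genes, 0 were called and the median was 0.041. Bub3, Mad2l1 and Cenpe, the most abundant of them, had differences of 0.17, 0.026 and 0.044. All 44 genes of the spindle, chromosome structure and cytokinesis were tested, 0 were called, and the median was 0.051. In that list the condensin gene Smc4 was at 32.2 ± 3.24 FPKM in mutants and 31.1 ± 3.70 FPKM in controls, and Lmnb1 and Numa1 had differences of -0.016 and 0.058. The 33 tested CDK regulators and ubiquitin ligase genes had a median of 0.097 and 0 calls, led in abundance by Skp1a, Anapc5 and Cul1 with differences of 0.054, 0.15 and 0.028. The 4 medians turned to -0.026, -0.062, -0.060 and 0.00027 after median-of-ratios scaling, in the order given, beside -0.012 for all tested genes.

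Markers of the cell types in the dissected dermis were read beside the division genes. All 19 hair follicle genes had log2 differences below 0, as deposited (median -0.36) and after scaling (median -0.48), with 0 called, and none was listed at 0. Of all tested genes 0% were called lower in both. Every mutant lay below every control in 3 of the 19 as deposited and in 8 after scaling, against 2.65% and 11.7% of all tested genes. The sum of the hair follicle genes was 7659, 3489 and 6582 FPKM in mutants 1 to 3 and 6434, 7341 and 7855 FPKM in controls 1 to 3. It was led by the inner root sheath keratin genes Krt71 and Krt25, so it is no measure of the dividing matrix alone. Mutant 2 had the lowest sum, as deposited and after scaling. Basal keratinocyte genes, led by Krt5 and Krt14, summed to 839, 679 and 727 FPKM in mutants and 732, 555 and 602 FPKM in controls, with control 2 lowest. After scaling control 3 was lowest, at 609.6 FPKM against 631 FPKM in control 2.

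Immune and connective tissue markers were read in the same way. All 8 macrophage and monocyte genes, led by Lyz2 and Mrc1, had differences above 0. Of them 0 were called as deposited and 1 after scaling, where 0.143% and 0.199% of all tested genes were called higher. They summed to 380, 207 and 233 FPKM in mutants and 115, 81.9 and 140 FPKM in controls. All 8 dermal fibroblast genes, led by Col1a1 and Col3a1, were above 0 with 0 called, and summed to 13696, 9502 and 9544 FPKM in mutants and 5114, 2718 and 10484 FPKM in controls. Mast cell genes, led by Cpa3 and Mcpt4, summed to 74.4, 42.6 and 41.3 FPKM in mutants and 29.1, 17.2 and 18.5 FPKM in controls, with 0 of 5 called. Macrophage, mast cell, blood endothelial and adipocyte sums did not overlap between groups as deposited, while fibroblast sums did. After scaling the adipocyte sums overlapped, with mutant 3 at 371 FPKM and control 2 at 386 FPKM. By gene, every mutant lay above every control in 7 of 8 macrophage, 4 of 5 mast cell and 5 of 8 fibroblast genes. The same was so for 3 of 5 adipocyte and 2 of 5 blood endothelial genes. Among all tested genes this held for 13%. Blood endothelial genes, led by Pecam1 and Cdh5, summed to 33.7 to 42.5 FPKM in mutants and 26.6 to 32.6 FPKM in controls, and adipocyte genes, led by Fabp4 and Cfd, to 387 to 593 FPKM in mutants and 340 to 376 FPKM in controls. Skeletal muscle genes, led by Acta1 and Mylpf, summed to 595 to 1283 FPKM in mutants and 293 to 1194 FPKM in controls, suprabasal keratinocyte genes, led by Krt10 and Ivl, to 93.3 to 140 FPKM in mutants and 68.2 to 118 FPKM in controls. Melanocyte genes, led by Mlana and Dct, summed to 34.5 to 62.9 FPKM in mutants and 51.1 to 59.3 FPKM in controls. T and B cell genes reached a mean of 1 FPKM in 1 of 7, and Hba-a1 of the red cell list was listed at 0 in every library. The part of these cell types in the levels of the division genes was not tested.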

How the data were processed

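RNA-seq libraries from 3 mutant and 3 control mice were compared. Libraries were made with a stranded total RNA kit, per the labels' protocols. Per the submitters' processing notes GSNAP, HTSeq and mm10 were used. Versions, gene models and counting settings were not given in the sources used here. Separately, the authors deposited 1 table of FPKM values for 23412 genes, and its depth term is not given. Each library came from its own mouse, per the labels, and p-values rest on the variation among these 6 libraries.

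Values were tested as log2(FPKM + 1) with limma 3.58.1 in R 4.3.3 (intensity trend, two-sided, Benjamini-Hochberg adjustment over the 12560 genes that averaged 1 FPKM or more, threshold 0.05). The log2(value + 1) scale understates the change of low genes. FPKM values are whole multiples of a step per gene, and reads recovered from the steps (100% of genes within a relative tolerance of 3e-09, taking the smallest solution, so a common divisor is lost) gave depth and the voom alternative. Low members such as E2f1 rest on few reads, which limits precision. Both procedures were tested on simulated data. Locations are from GENCODE release M21 (GRCm38, the assembly also called mm10). GENCODE exons of 16 members overlap a gene on the other strand and of 3 a gene on the same strand, and 5 (Pcna, Tyms, Ccnb1, Ccnb2 and Ccnd3) have a named pseudogene, so their reads may be shared.

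Members and lists were chosen with earlier results of these data known. Values per library are given for the 6 largest absolute differences and the 3 highest means of each role and for all cyclin D and inhibitor genes. Other lists are named by their 3 highest genes, with means or differences, and marker lists by their 2 highest genes, with summed FPKM. Replicate numbers do not pair the mice in the labels. Alternatives were another pseudocount and other filters, scalings, models and subsets of libraries.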

Additional observations from a re-analysis of the deposited data

How the results depend on the processing

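Under every alternative run, 0 members were called. The lowest adjusted p of a member was 0.107, for Cdkn1a in limma-voom. Over all tested genes the number called was 18, against 9 with a pseudocount of 0.1, 4 with no filter on low FPKM, 32 after quantile normalization, 10 without the trend, 11 with library sex as a covariate, 185 with limma-voom and 10 without control 2 and mutant 1, a pair chosen after the data were seen. Leaving out 1 library gave 10, 3 and 52 called genes without mutants 1, 2 and 3 and 29, 11 and 193 without controls 1, 2 and 3. The cause was not tested.

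With the replicate block 68 genes and 0 members were called. Same-numbered libraries did not deviate together (correlations of 0.0016, 0.037 and -0.082), so the numbers were not taken as pairs.

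Medians depended on control 2 and mutant 1. Without both, the S phase and G1 control medians were -0.032 and -0.061, and 26 of 49 members changed sign. The mitosis minus S phase difference ran from -0.13 (without control 2) to 0.017 (without control 1). Sign changes under scaling numbered 12 with median-of-ratios, 12 with quantile normalization and 17 with voom. With a mean FPKM filter of 5, 35 members were tested. Few recovered reads limit the low genes, such as Gins2 with 21 in control 2.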

Other observations

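Genes of the E2F, Rb and DREAM group, which sets when division genes are read, had 0 of 18 called, against 0.143% of all tested genes higher and 0% lower. The median log2 difference of the group was 0.034 (-0.070 after median-of-ratios scaling, against -0.012 for all tested genes). The most abundant were Tfdp1, the E2F partner, at 27.7 ± 4.49 FPKM in mutants and 26.6 ± 2.17 FPKM in controls (mean ± SD, n = 3 each), the histone chaperone gene Rbbp4 at 25.1 ± 4.61 FPKM in mutants and 22.9 ± 2.69 FPKM in controls, and Rb1, the retinoblastoma gene, at 16.5 ± 2.09 FPKM in mutants and 19.8 ± 2.81 FPKM in controls. Rb1 had a difference of -0.25 (limma adjusted p = 0.655) and, after scaling, of -0.36 (adjusted p = 0.283), with every mutant then below every control.

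Other p53 target genes, listed together with the p53 gene Trp53 itself, were read beside Cdkn1a. Of 17 tested, 0 were called, against 0.143% of all tested genes higher and 0% lower. As deposited 11 of the 17 had differences above 0 and 6 below (median 0.077, the value of Trp53). After scaling 5 were above and 12 below (median -0.023). Ccng1 had a difference of 0.21, Trp53inp1 of -0.11 and Plk2 of -0.14, with adjusted p from 0.851 to 0.908 in limma. Picked after their values were seen, Fas had a difference of 0.36 (adjusted p = 0.362) and Aen, after scaling, of -0.24 (adjusted p = 0.274).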
